A study of Mus musculus with 3 samples.

Results

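Aortic tissue neutrophils were 120 of the 8471 cell barcodes of a CITE-seq experiment, in which transcripts, surface antibodies and sample hashtags were counted in the same cells. A barcode was kept if its leading hashtag had at least 3 times the count of the next, at most 10% of its gene UMIs (unique molecular identifiers, counted molecules) were mitochondrial and it had at least 500 gene UMIs, which left 6098. A neutrophil was a kept cell with at least 100 UMIs of S100a8 and S100a9 together per 10000, at least 1 UMI of Retnlg, Il1r2, G0s2 or Trem1, under 10 UMIs of C1qa, C1qb and C1qc per 10000, and none of Cd79a or Cd3e. The cells were thus selected on their measured transcripts, so their transcript levels against other cells are described without a test. Transcripts were tested only between groups of mice.

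The study asked how Jak2V617F, an activating mutation of the kinase Jak2, changes aortic leukocytes when it is carried by myeloid cells. CD45+ cells were sorted from the aortas of 5 Jak2WT mice, numbered 1 to 5 after their hashtags, and 5 Jak2V617F Myel mice, numbered 6 to 10. All were on a C57BL/6 background, and the mutants carried 1 Jak2V617F Flex allele switched on by LysM-Cre, which acts in neutrophils, monocytes and macrophages. Mice 6, 8 and 10 had aortic dilation and mice 7 and 9 had an aneurysm. Ages of these mice are not given in the sources used here, and mice of both sexes were used. Leukocytes in the blood were labelled by an intravenous CD45.2 antibody shortly before death and were sorted away. The cells of each aorta were stained with their own hashtag and then pooled, and the 3 libraries of genes, antibodies and hashtags shared all 8471 barcodes of 1 Chromium run. The sort was set so that each genotype supplied about equal numbers of cells, so only shares within a mouse are compared. Jak2WT and mutant cells also carried different CD45.2 fluorochromes, and an effect of that label cannot be told apart from genotype.

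Neutrophils mature in the bone marrow from promyelocytes to myelocytes, band cells and segmented cells. Azurophil granule proteins such as elastase (Elane) and myeloperoxidase (Mpo) are made first, specific granule proteins such as Ngp, cathelicidin (Camp) and lactoferrin (Ltf) next, and gelatinase granule proteins such as Mmp9 last. Mature cells respond to the growth factor G-CSF through Csf3r and to CXC chemokines through Cxcr2, and in mice they carry Ly6G on their surface. Jak2 relays signals of cytokine receptors, among them Csf3r.

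Ngp, Camp and Ltf are shown because they separated one group of the cells described further on. All 3 genes lie on mouse chromosome 9. The windows run from 250 bases before to 50 after each RefSeq start, in GRCm38.p6 and in the direction of the gene, at chr9:110419558-110419857 on the plus strand (Ngp), chr9:109849407-109849706 on the minus strand (Camp) and chr9:111019042-111019341 on the plus strand (Ltf). Capitals mark matches to TTNNGCAA on either strand, a sequence of the kind that C/EBP factors bind.
Ngp: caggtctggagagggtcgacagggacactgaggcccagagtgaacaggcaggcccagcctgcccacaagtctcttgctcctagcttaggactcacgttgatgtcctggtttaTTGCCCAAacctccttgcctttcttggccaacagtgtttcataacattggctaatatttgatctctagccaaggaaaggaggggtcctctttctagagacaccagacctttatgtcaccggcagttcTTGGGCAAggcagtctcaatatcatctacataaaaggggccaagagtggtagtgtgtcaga
Camp: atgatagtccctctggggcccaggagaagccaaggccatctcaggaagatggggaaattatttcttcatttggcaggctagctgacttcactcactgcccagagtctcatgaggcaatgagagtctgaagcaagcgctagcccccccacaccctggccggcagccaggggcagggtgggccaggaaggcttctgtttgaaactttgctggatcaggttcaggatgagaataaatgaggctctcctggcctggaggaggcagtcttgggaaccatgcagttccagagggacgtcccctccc
Ltf: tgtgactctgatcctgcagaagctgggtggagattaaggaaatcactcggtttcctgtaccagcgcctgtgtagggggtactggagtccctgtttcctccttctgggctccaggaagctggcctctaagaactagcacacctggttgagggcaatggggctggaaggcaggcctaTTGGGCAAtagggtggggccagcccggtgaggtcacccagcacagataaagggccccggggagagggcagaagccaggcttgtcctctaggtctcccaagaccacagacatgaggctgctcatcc
The Ngp window held 2 matches, the Ltf window 1 and the Camp window 0. Among 32851 RefSeq windows of the same length, 10.8% held at least 1. The matching windows of S100a9 and Retnlg held 1 each and those of S100a8 and Siglecf 0. A match is a run of letters, and binding was not measured.

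The neutrophils held little RNA. Their gene UMIs ranged from 1593 to 48596 with a median of 4294.5, against 10534 in macrophages, 5761.5 in B cells and 7368 in T cells, and they had a median of 1274 genes. Mitochondrial UMIs had a median of 0.297% and a maximum of 2.41%. S100a8 and S100a9 together had a median of 769.8 per 10000 UMIs and a maximum of 3732. The members nearest the limit had 102.1 and 103.8, the kept cells just outside it 97.6 and 95, and 8 cells that met every other criterion lay between 50 and 100. All 4 additional markers were detected in 55 cells and only 1 in 9, with Trem1 in 112, Il1r2 in 109, Retnlg in 85 and G0s2 in 75. Of the 22 kept cells over the S100 limit that were not members, 17 had too many C1q UMIs.

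Genes that the rule did not use also carried the neutrophil pattern. Csf3r was detected in 77.5% of neutrophils after each cell was thinned to 1500 UMIs (exact 95% interval 69.0 to 84.6%), against 0 of 583 B cells, which allows up to 0.631% by the same interval. Cxcr2 was detected in 60.8% against 0% of B cells and Clec4d, a lectin receptor, in 77.5% against 0.686%. Mmp9, the gelatinase, was detected in 55% against 0.172%. In 2688 macrophages the thinned shares were 3.53% for Csf3r, 0.0372% for Cxcr2, 12.8% for Clec4d and 4.54% for Mmp9. Before thinning the 4 shares in neutrophils were 92.5%, 87.5%, 91.7% and 75.8%. All intervals cover counting error only. Messenger RNA of Ly6g was sparse, with 10% of thinned neutrophils positive.

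Apart from the S100 genes, the transcripts of highest mean level over the 8 mice with at least 5 neutrophils were Malat1, Tmsb4x, Fth1, Ngp, Actb and Retnlg. S100a9 averaged 94395 ± 29138 counts per 1000000 UMIs of a mouse (CPM, SD, n = 8) and S100a8 72275 ± 20281. These 2 genes encode calprotectin. Relative to all other kept cells, with 10 CPM added to both, the largest folds were those of Ngp (1098), S100a9 (905), Camp (804), S100a8 (747), Retnlg (482), Lcn2 (365), Ltf (280), Wfdc21 (169) and G0s2 (151). Ngp, Camp and Ltf were detected in 15, 13 and 14 of the 120 neutrophils, and 12 cells described below held nearly all of their UMIs. The inflammatory transcripts Il1b, encoding interleukin 1 beta, at 8152 ± 3655 CPM, and Cxcl2, a neutrophil-attracting chemokine, at 9343 ± 5888 CPM, were abundant too. Cxcl2 was at 6948 CPM in the other cells and Il1b at 1460. Jak2 itself was sparse, at 33.1 ± 25.6 CPM against 55.1 in the other cells. At 1500 UMIs per cell it was detected in 10% of neutrophils (exact 95% interval 5.27 to 16.8%), 3.42% of macrophages and 13.9% of B cells.

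Markers of other leukocytes were low but not absent. The 10 macrophage markers summed to 495 to 1817 CPM per mouse against 15232 CPM in the other kept cells, and all 10 were detected, led by Apoe at 734 CPM. Dendritic cell markers, led by Cd74, summed to 99.9 to 481 CPM against 14547, with Flt3, Xcr1 and Zbtb46 at 0. B cell markers, led by Ighm, summed to 31.7 to 293 CPM against 1113, with Ms4a1 at 0. Monocyte markers, led by Ly6c2, summed to 97.6 to 2498 CPM against 2517, and the highest value was that of mouse 9. Of the 4 platelet markers only Pf4 was detected, with Ppbp, Gp9 and Itga2b at 0. Pf4 was at 99.9 to 391 CPM in Jak2WT mice and 31.7 to 75.5 CPM in mutants. The paper treats Pf4 as a marker of aortic resident macrophages too, so these values are not a measure of platelets alone. Erythroid markers averaged 266 and 89.6 CPM, and stromal markers 108 and 34.9 CPM, in 4 Jak2WT and 4 mutant mice. Over all 10 mice the genotypes overlapped in both. The part of these markers in the genotype values was not tested. A total of 15 neutrophils held at least 3 UMIs of a set of genes of another lineage, of which 9 held hemoglobin and 5 MHC class II transcripts. Their part in the results below was not tested.

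Surface Ly6G, which did not choose the cells, was the check of the label. The median count was 41.5 in neutrophils and 0 in macrophages, B cells, T cells and a class of 161 cells with Lyz2 and at least 2 of the monocyte genes Ly6c2, Plac8, Chil3, Ccr2 and F13a1 but little C1q, called Lyz2+ C1q-low cells here. A total of 115 of 120 neutrophils (95.8%, exact 95% interval 90.5 to 98.6%) exceeded 2 counts, the 99th percentile of B cells, against 7.34% of macrophages, 3.73% of Lyz2+ C1q-low cells and 0.680% of B cells. All 5 cells at or under that limit came from Jak2V617F mice. Surface Ly6G thus marked nearly all of the cells by a measurement independent of the rule.

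Neutrophils were a small and variable share of the aortic leukocytes, and the genotypes overlapped. In Jak2WT mice 1 to 5 the shares of kept cells were 1.52%, 1.93%, 3.93%, 2.00% and 1.49%, from 5, 8, 24, 3 and 10 neutrophils. In Jak2V617F mice 6 to 10 they were 1.81%, 1.44%, 0.926%, 3.39% and 0.651%, from 8, 15, 4, 37 and 6 neutrophils. Mouse 3 was highest among Jak2WT mice and mouse 9, with an aneurysm, among the mutants, while the other aneurysm, mouse 7, lay among the lower values. For mouse 8, with 4 neutrophils, the exact 95% interval ran from 0.253 to 2.35%.

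**Figure D1:**
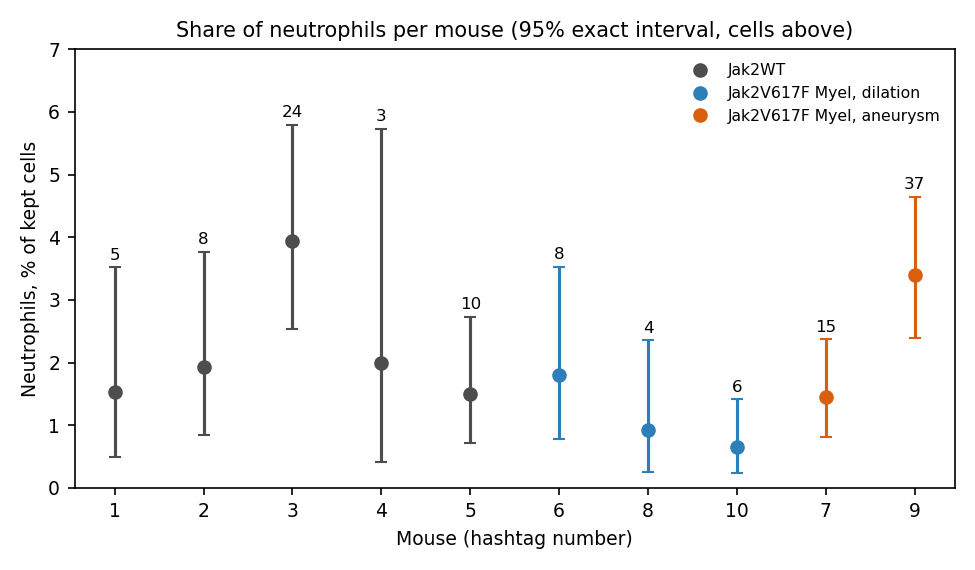
Share of neutrophils among the kept cells of each mouse, in percent, with exact 95% intervals for counting error, for 5 Jak2WT mice, 3 mutants with dilation and 2 with aneurysm. Mice 3 (3.93%) and 9 (3.39%) are the highest, and the groups overlap.

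The mean share was 1.64% ± 1.07 (SD, n = 5) in Jak2V617F mice and 2.18% ± 1.01 (SD, n = 5) in Jak2WT mice, and the difference was within the spread between mice (exact permutation test, two-sided, p = 0.437, adjusted p = 0.556 over 4 comparisons). The 3 dilation mice averaged 1.13% ± 0.603 (SD, exact permutation p = 0.179 against Jak2WT). The 2 aneurysm mice averaged 2.42% ± 1.38 against 1.78% ± 0.99 in the 8 other mice (exact permutation p = 0.556). Aneurysm against dilation gave p = 0.3 by the exact permutation test, where the smallest possible is 0.1. The aneurysm difference, 0.633 percentage points, turned to -0.384 when cells with high SiglecF, described below, were left out.

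Against the other leukocytes of the same mouse, neutrophils carried a distinct set of surface proteins. Over the 8 mice with at least 5 neutrophils, 10 of 73 antibodies with counts were higher (13.7%) and 46 lower (63%), by exact sign-flip permutation tests on log2(mean count + 1) with Benjamini-Hochberg adjustment. The smallest p of this design is 0.0078, and with the adjustment the largest differences reached 0.0143.

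Ly6G led the higher antibodies. In mice 1, 2, 3 and 5 the differences in log2(mean count + 1) were 5.57, 5.55, 5.21 and 4.94, and in mice 6, 7, 9 and 10 they were 4.56, 4.50, 3.63 and 4.41. Every difference was positive, and all 4 Jak2WT values lay above all 4 mutant values, as they did for 5 of 73 antibodies (6.85%), the others being PIRAB, MGL1, CD68 and Mac2. The mean was 4.80 ± 0.65 (SD, n = 8, adjusted exact permutation p = 0.0143).

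Ly6C, a GPI-anchored protein shared with inflammatory monocytes, was higher by 2.51 ± 0.52 in 8 of 8 mice (adjusted exact permutation p = 0.0143). The adhesion receptor CD44 was higher by 2.16 ± 0.83, the sialomucin CD43 by 1.83 ± 0.36 and the integrin subunit CD11b by 1.8 ± 0.96, each in 8 of 8 mice. The paired immunoglobulin-like receptors PIRAB followed at 1.53 ± 0.82, and CD24 (1.03 ± 0.66), CD55, a complement regulator (0.68 ± 0.63), and JAML, a junctional adhesion molecule (0.65 ± 0.56), were higher in 7 of 8 mice. The sialic acid-binding lectin SiglecF was higher by 2.03 ± 1.46 in 7 of 8 mice, from -0.84 in mouse 1 to 4.37 in mouse 9 (adjusted exact permutation p = 0.0238). Lower antibodies included MHC class II (IAIE), at -4.36 ± 1.04, CD5 (-3.87 ± 0.53), the tetraspanin CD63 (-3.13 ± 0.93), the phosphatidylserine receptor TIM4 (-3.06 ± 0.89), the scavenger receptor CD163 (-2.51 ± 0.44), CD226 (-2.23 ± 0.82) and the costimulatory CD86 (-2.06 ± 0.66). These, with CD14 (-1.81 ± 0.94) and CD8a (-1.74 ± 0.73), were lower in 8 of 8 mice. The isotype control Rat_IgG1 had mean counts of 0.177 in neutrophils and 0.280 in the others, and Rat_IgG2b 0.0354 and 0.0690, far below any of the higher antibodies. Rat_IgG2b was itself among the 46 lower antibodies (adjusted exact permutation p = 0.0407).

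**Figure D2:**
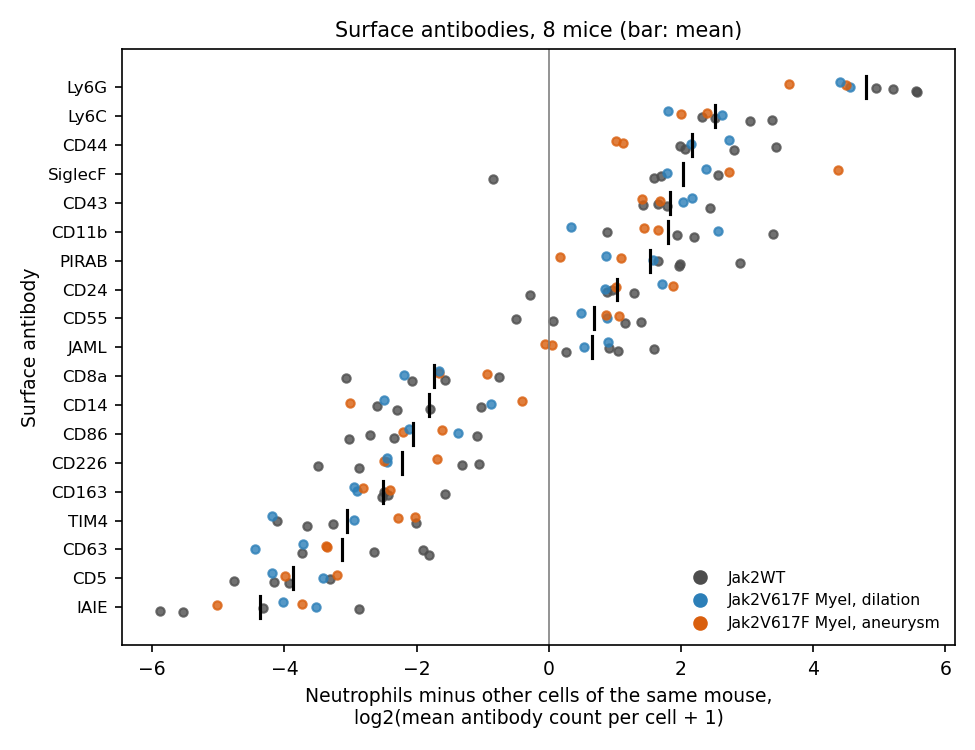
Difference in log2(mean antibody count + 1) between neutrophils and the other kept cells of the same mouse, 1 point per mouse (n = 8) and a bar at their mean, for the antibodies named in the text. Ly6G has the largest positive differences (mean 4.80) and IAIE the most negative (mean -4.36).

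Compared with macrophages of the same mouse, 11 antibodies were higher (15.1%) and 53 lower (72.6%). Ly6G was higher by 4.85 ± 0.59, CD43 by 3.09 ± 0.39, CD44 by 2.61 ± 0.89 and CD55 by 2.59 ± 0.49, each in 8 of 8 mice (adjusted exact permutation p = 0.0124). CD163 was at -3.34 ± 0.36 and TIM4 at -3.86 ± 0.93. The 3 isotype controls Hamster, Rat_IgG1 and Rat_IgG2b were also among the 53 lower (adjusted exact permutation p = 0.0280, 0.0362 and 0.0124), and the part of nonspecific binding in these counts was not tested. Compared with Lyz2+ C1q-low cells, 6 antibodies were higher (8.22%) and 21 lower (28.8%). With single mice left out these counts ran from 0 to 8 and from 0 to 19. Against these cells Ly6G was at 5.07 ± 0.71, CD55 at 3.49 ± 0.42 and CD226, an adhesion molecule, at -4.94 ± 0.60. Ly6C differed from them by 0.06 ± 1.62, within the spread between mice (adjusted exact permutation p = 0.966). On their surface the Lyz2+ C1q-low cells averaged 695 counts of IAIE, 60.0 of CD11c and 0.516 of CD64, against 323, 7.77 and 3.83 in macrophages, so antibodies of dendritic cells were high in this class and it is given no cell type name.

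Within the neutrophils, surface Ly6G was lower in Jak2V617F mice in the mean of every mouse. Mean counts per cell were 71.6, 87.6, 57.3, 65.7 and 43.6 in Jak2WT mice 1 to 5 and 40.8, 34.5, 40.8, 37.7 and 38.0 in Jak2V617F mice 6 to 10. The lowest Jak2WT mouse lay above the highest mutant mouse, and the means were 65.2 ± 16.4 and 38.3 ± 2.58 (SD, n = 5 each). Ly6G was the only antibody of 73 (1.37%) for which every mutant mouse was below every Jak2WT mouse. CD49d, integrin alpha 4, was the only one (1.37%) with every mutant mouse above, at 2.4 to 4.33 counts against 1.25 to 2.2 in Jak2WT mice, although its edgeR log2 fold change was 0.63 (SE 0.38, adjusted p = 0.632). The granule-high cells described below averaged 6.33 counts of CD49d, and their part was not tested.

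**Figure D3:**
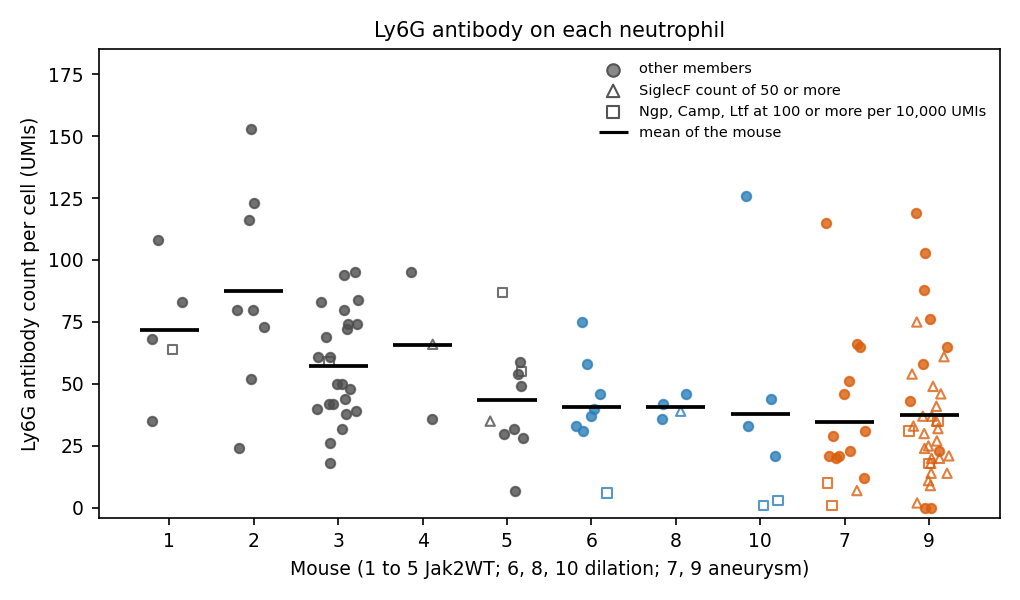
Surface Ly6G counts of single neutrophils by mouse, with the mean of each mouse as a line, cells with a SiglecF count of 50 or more as triangles and cells high in Ngp, Camp and Ltf as squares. The means run from 43.6 to 87.6 in Jak2WT mice and from 34.5 to 40.8 in Jak2V617F mice, while the single cells of the genotypes overlap.

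The test across antibodies did not place this difference past the threshold. In the edgeR quasi-likelihood fit on 4 mice per genotype, Ly6G had a log2 fold change of -0.89 (SE 0.23, unadjusted p = 0.00237, adjusted p = 0.173). None of 73 antibodies was called (0%), 8 had an unadjusted p under 0.05, and DESeq2 called 1 (1.37%), which was Ly6G (-1.01, adjusted p = 0.00385). The separation of the mouse means did not hold under some other choices of cells. The genotypes overlapped among singlets of HTODemux, a hashtag classifier (mouse 6 at 49.3 and mouse 5 at 43.1) and without SiglecF-high cells, described below (mouse 9 at 50.7 and mouse 5 at 44.6). They stayed apart with an S100 minimum of 200 per 10000. Selection of cells by Ly6G itself bears on these means by construction and is not used here. Without the SiglecF-high and granule-high cells, the groups overlapped (37 to 87.6 in Jak2WT mice and 41.3 to 57.5 in mutants) and the edgeR value was -0.45 (adjusted p = 0.842). That fit had 3 mice per genotype, since mice 1 and 10 fell below 5 cells, and with all cells of the same 6 mice the edgeR value was -0.77 (adjusted p = 0.470). Among HTODemux singlets it was -0.55 (edgeR adjusted p = 0.742), from mice 2, 3, 5, 7 and 9, where all cells of these 5 mice gave -0.76 (edgeR adjusted p = 0.657).

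SiglecF separated 1 mouse from the rest. Mean counts were 1.8, 7.13, 4.08, 23.3 and 10.5 in Jak2WT mice 1 to 5 and 7.38, 18.5, 26.5, 209 and 11 in mice 6 to 10. The second highest value was 26.5, in mouse 8, and the genotypes overlapped apart from mouse 9. The edgeR fold change was 3.10 (SE 1.01, adjusted p = 0.395), and 1.04 (adjusted p = 0.780) without mouse 9. CD14, a co-receptor for endotoxin, was likewise at 93.5 counts in mouse 9 and between 8.75 and 26.1 elsewhere.

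The high SiglecF counts came from a set of cells with a gap below it: no neutrophil had a count between 29 and 58. The 28 cells at 58 or more, called SiglecF-high here after the values were seen, included 24 of the 37 neutrophils of mouse 9 (64.9%) and 4 of the 83 of the other 9 mice (4.82%), in mice 4, 5, 7 and 8. They carried Ly6G at a median of 31 counts. The Ly6g transcript was detected in 0 of the 28, against 13 of the 80 cells of neither set and all 12 granule-high cells. The eosinophil genes Prg2, Epx, Ccr3 and Il5ra had no UMI in them, and their CCR3 antibody averaged 0.571 counts, against 0.113 in the 80 cells of neither set described here, 0.167 in granule-high cells and 0.499 in macrophages.

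**Figure D4:**
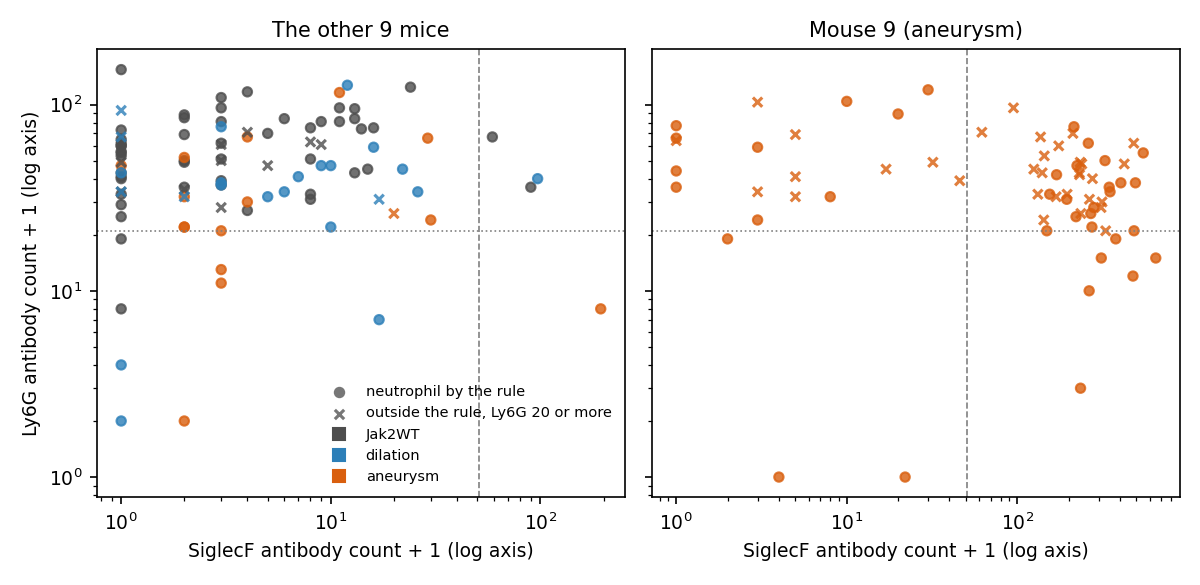
Surface Ly6G against surface SiglecF counts (each + 1, log axes) of the 120 neutrophils (circles) and of the 49 other kept cells with a Ly6G count of at least 20 (crosses), with mouse 9 in its own panel and lines at SiglecF 50 and Ly6G 20. The 28 neutrophils with a SiglecF count of 58 or more, 24 of them from mouse 9, keep Ly6G counts of 2 to 75.

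SiglecF-high cells had a transcript profile of their own, which is described without a test. Relative to the 80 cells in neither this set nor the granule-high set, Cdkn1a, a cell cycle inhibitor, was at 3346 against 210 CPM. These 80 include 2 cells of mouse 9 with Elane, described below, which hold 19.97% of their UMIs. The survival gene Bcl2a1b was at 2307 against 339 CPM and Il1b at 24692 against 8834. Ptgs2, encoding cyclooxygenase 2, was at 2135 against 706, Icam1 at 634 against 123, Vegfa, an angiogenic factor, at 412 against 100 and Siglecf itself at 369 against 35.9. Retnlg was lower, at 86.1 against 8970 CPM, as was Slpi, at 301 against 2913. On the surface CD14 averaged 103 against 19.5 counts, CD11c 21.8 against 4.04, ICAM1 23.5 against 2.79 and CD43 29.1 against 133.

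Since 24 of the 28 cells came from mouse 9, the same contrast within that mouse removes differences between mice. Of its 10 remaining cells, the 2 with Elane held 67.3% of the UMIs and are left out here. The 24 SiglecF-high cells and the 8 others had Cdkn1a at 3662 and 265 CPM, Bcl2a1b at 2508 and 715, Il1b at 26672 and 12078 and Ptgs2 at 2218 and 874. Cxcl10, an interferon-inducible chemokine, had 90 UMIs in the former and none in the latter. Retnlg was at 6.91 and 8185 CPM, Csf3r at 615 and 1457, Cxcr2 at 311 and 1245 and Mmp9 at 124 and 1139. Isg15, an interferon-stimulated gene, had 4 and 9 UMIs. Apoe, most abundant in macrophages, was at 1831 and 212 CPM, and its part was not tested.

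A further set was marked by the specific granule genes whose promoters are shown above. A total of 12 cells had at least 158 UMIs of Ngp, Camp and Ltf together per 10000, the next cell had 58.4, and these 12 are called granule-high here, again after the values were seen. They were 1 cell each of mice 1, 3 and 6, 2 each of mice 5, 7 and 10, and 3 of mouse 9, so 8% of the 50 Jak2WT and 11.4% of the 70 Jak2V617F neutrophils. They were 10% of the neutrophils but held 25.2% of their UMIs, with a median of 14678 against 3976 in the 80 remaining cells. None was SiglecF-high.

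Granule-high cells had Ngp at 48206 CPM against 115 in the remaining cells, Camp at 35854 against 2.57 and Lcn2, a siderophore-binding protein, at 19263 against 1568. Cybb, the catalytic subunit of the NADPH oxidase, was at 1355 against 118 and Ly6g at 511 against 82.1. Il1b was at 210 against 8834 and Cxcl2 at 102 against 12876. The inflammasome sensor Nlrp3 was at 21.5 against 1219 and the kinase Pim1 at 37.6 against 2097. Csf3r was at 59.2 against 1401. On the surface CD43 averaged 351 against 133 counts, CD49d 6.33 against 2.09 counts and CD11b 337 against 848. Surface Ly6G averaged 30.8 against 55.55 counts over the pooled 4 Jak2WT and 8 mutant granule-high cells. Within mutants 6, 7, 9 and 10 it was lower than in the remaining cells, at 6, 5.5, 28 and 2 against 45.7, 41.7, 57.5 and 56. Within Jak2WT mice 1, 3 and 5 it was at 64, 59 and 71 against 73.5, 57.2 and 37. The reverse of the transcript was thus seen in the mutant cells and not in the Jak2WT cells as a group.

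**Figure D5:**
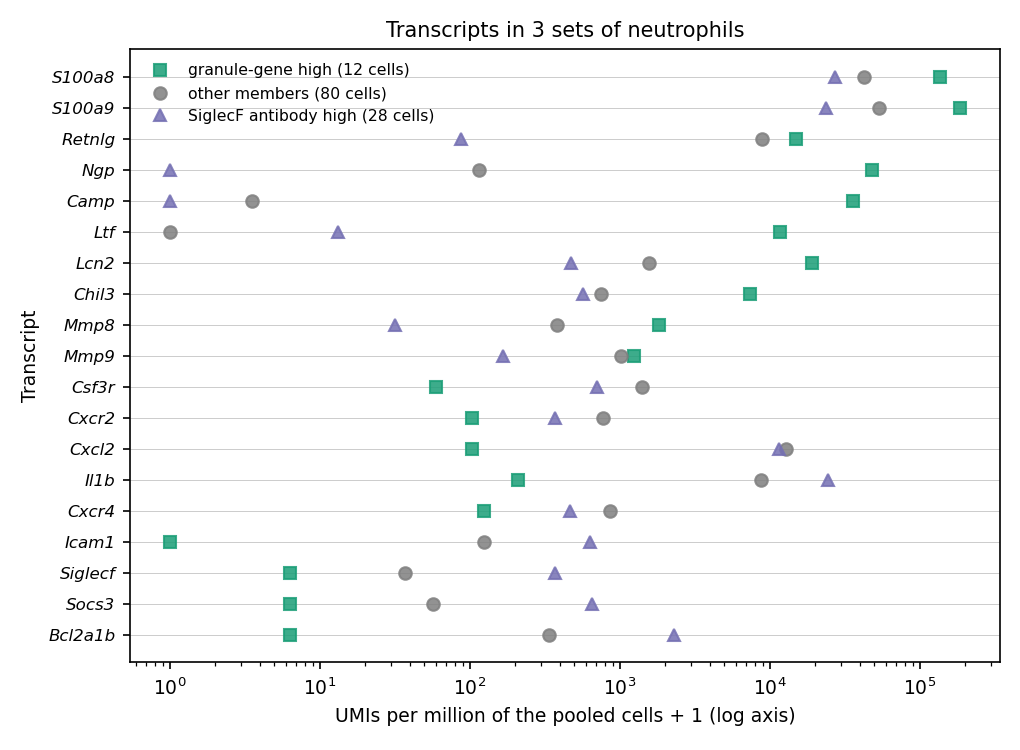
Levels of selected genes in SiglecF-high (28 cells), granule-high (12 cells) and remaining (80 cells) neutrophils, as CPM + 1 on a log axis, from the pooled cells of each set. Ngp and Camp are highest in the granule-high cells and Socs3 and Bcl2a1b in the SiglecF-high cells, while Retnlg is low in the latter.

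The granule-high cells differed among themselves in maturity genes and in Ly6G. Their mean Ly6G counts were 64, 59 and 71 in Jak2WT mice 1, 3 and 5 and 6, 5.5, 28 and 2 in mutants 6, 7, 9 and 10, from 1 to 3 cells per mouse. The means of the mice did not overlap between the genotypes. With so few cells and mice, other antibodies may separate by chance, and the share that do in these cells was not counted. One of the 2 cells of mouse 10 had 310 antibody counts in all, against 924 to 1619 in the other 11 granule-high cells, and HTODemux called the cell of mouse 6 and 1 cell each of mice 9 and 10 doublets. The Ly6g transcript was present in all 12 cells, from 1 to 30 UMIs. CD11b averaged 226 to 392 counts in the 3 Jak2WT mice and 214 to 412 in the 4 mutant mice, which overlapped. The set was formed after values were seen, so no test is given.

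At least 2 cycling genes were detected in 4 granule-high cells, 2 of mouse 9 and 2 of mouse 10, with Mki67 at 25, 6, 28 and 10 UMIs, and in none of the other 8. Those 4 cells had 167 to 284 UMIs of Chil3, a chitinase-like protein of immature granulocytes, and 0 to 35 of Retnlg. The granule-high cells of mice 1, 3 and 5 had 0 to 28 of Chil3 and 240 to 690 of Retnlg. Mmp8, a late granule collagenase, was at 0 to 3 UMIs in the former and 29 to 83 in the latter. The other mutant cells fell on both sides, as the cell of mouse 6 and 1 of mouse 9 had 44 and 42 UMIs of Chil3, 215 and 358 of Retnlg and 63 and 43 of Mmp8, while the 2 of mouse 7 had 238 and 142 of Chil3, 45 and 76 of Retnlg and 0 and 3 of Mmp8.

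The 5 azurophil granule genes summed to 4772 CPM in mouse 9, 10.6 CPM in mouse 7, 20.6 CPM in mouse 10 and 0 in the other 7 mice. In mouse 9, 2 cells carried Elane, with 29227 and 48596 UMIs, 473 and 135 of Elane, 89 and 36 of Mpo and 348 and 279 of Prtn3. Both had a Ly6G count of 0 and cycling transcripts, with Stmn1 at 40 and 63 UMIs, and they met the rule through 298 and 202 UMIs of S100a8 and S100a9 per 10000. They had Csf3r at 1 and 0 UMIs and Ly6c2 at 106 and 246. These 2 cells held 24.5% of the neutrophil UMIs of mouse 9 and entered its sums in the comparisons that follow. Without them edgeR called 0 of 687 genes between the genotypes, with 116 at an unadjusted p under 0.05.

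No transcript in neutrophils passed the threshold between the genotypes. Summed UMIs of 8 mice were compared by edgeR's quasi-likelihood test, and 0 of 680 genes were called at an adjusted p under 0.05 (0%), while 122 had an unadjusted p under 0.05. DESeq2 called 34 of the same 680 (5%), 17 higher and 17 lower. The median log2 fold change over all genes was 0.06. The 680 include 6 of the 11 genes of the rule, of which edgeR called 0 and gave 2 an unadjusted p under 0.05, both lower.

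Klf3, a repressor of the Kruppel-like family, had the lowest p. Its levels were 236, 553, 406, 699 and 361 CPM in Jak2WT mice 1 to 5 and 52.2, 63.3, 311, 91.2 and 82.4 CPM in mice 6 to 10. Mouse 8, with only 4 neutrophils and outside the fit, lay among the Jak2WT values, and the other mutants lay below all of them. The log2 fold change was -2.05 (SE 0.35, edgeR adjusted p = 0.0622). Jun, an immediate-early transcription factor, followed, at 572, 651, 578, 400 and 415 CPM in Jak2WT mice and 287, 200, 363, 145 and 103 CPM in mutants (-1.40, SE 0.32, edgeR adjusted p = 0.148). Both genes were picked by their p, and the share of all tested genes whose mice separate in this way was not counted.

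The other lowest p values toward lower levels belonged to Slc25a33 (-1.46), the interferon-inducible Ifi27l2a (-3.09) and 4833407H14Rik (-1.43). Toward higher levels they belonged to the ribosomal protein gene Rps20 (2.14), the cyclophilin gene Ppia (2.79), Chil3 (4.37), Hnrnpf (1.49), a splicing factor, and Tnfaip3 (1.74), an inhibitor of NF-kappaB signalling. The edgeR adjusted p was between 0.148 and 0.181 for these 8. Chil3 was at 538, 0, 42.8, 0 and 541 CPM in Jak2WT mice and 1148, 4052, 155, 2375 and 10820 CPM in mutants. Chil3 was highest in mouse 10, where the 2 granule-high cells held 284 and 218 UMIs of it.

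Gene groups of neutrophil function were each described by their counts, with no member called by edgeR. All 6 tested specific granule genes had positive fold changes with a median of 1.46, against a median of 0.06 and 358 of 680 positive over all genes. Their summed level was 39774, 1497, 4899, 1299 and 39878 CPM in Jak2WT mice 1 to 5 and 30825, 67751, 6737, 21781 and 115718 CPM in mice 6 to 10. The genotypes overlapped, and the 6 mice with the highest levels each had at least 1 granule-high cell, as did mouse 3 at 4899 CPM. Ngp had a log2 fold change of 1.72 (SE 1.22) and Camp 2.10 (SE 1.20), with edgeR adjusted p of 0.46 and 0.38.

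The gelatinase granule and protease genes had a median of -0.51 (5 of 6 negative), with Mmp9 at -1.10 (SE 0.44, edgeR adjusted p = 0.245). Among 16 tested genes of mature neutrophil identity, 11 were negative (median -0.26). Of 9 adhesion and migration genes, 8 were negative (median -0.42). Of 6 NADPH oxidase genes 5 were positive (median 0.49), and of 11 immediate-early and heat-shock genes 9 were negative (median -0.47).

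Of 6 tested cytokines and chemokines, 5 were positive with a median of 0.54. Il1b was at 3601, 7974, 8311, 6195 and 5377 CPM in Jak2WT mice and 13050, 8293, 6737, 13687 and 4926 CPM in mutants. The genotypes overlapped, with mice 6 and 9 highest (log2 fold change 0.89, SE 0.35, edgeR adjusted p = 0.236). In mouse 9, 3860 of the 4351 Il1b UMIs lay in its SiglecF-high cells. Ccl3, a chemokine for monocytes, had 2.13 (SE 0.89, edgeR adjusted p = 0.259).

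All 5 tested genes of the JAK2-STAT pathway and its feedback had negative fold changes (median -0.27). Pim1, a kinase induced by STAT5, was at 1447, 1041, 3177, 1799 and 1480 CPM in Jak2WT mice and 1879, 1825, 1088, 1177 and 515 CPM in mutants, which overlapped (-0.24, SE 0.42, edgeR adjusted p = 0.787). Stat3 was at -0.27 (SE 0.31). Jak2, at 0 to 54.1 CPM in Jak2WT mice and 26.1 to 69.2 CPM in mutants, was too sparse to be tested.

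The 3 tested interferon-stimulated genes were negative (median -0.70). Isg15 was at 4173, 2018, 545, 6795 and 289 CPM in Jak2WT mice and 600, 623, 1140, 44.0 and 0 CPM in mutants. Mice 1, 2 and 4 stood above all mutants and mice 3 and 5 among them (-2.39, SE 1.03, edgeR adjusted p = 0.265). Rsad2, an antiviral enzyme, was at 2086 CPM in mouse 1 and at most 358 CPM elsewhere.

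Depth differed between the genotypes without passing the threshold after adjustment. The median UMIs per neutrophil averaged 4975 ± 825 in 4 Jak2V617F mice and 3854 ± 152 in 4 Jak2WT mice without overlap (exact permutation p = 0.0286, the smallest possible, adjusted p = 0.114 over 4 measures). The difference of 1122 UMIs was 480 without the SiglecF-high and granule-high cells, where mice 1 and 10 fell below 5 cells, and 1052.5 with all cells of the 6 mice left. With 3 mice per genotype the exact permutation p of both was 0.1, the smallest possible. Median genes per cell were 1470 ± 327 and 1222 ± 61.7 (exact permutation p = 0.171), median mitochondrial shares 0.411% ± 0.248 and 0.226% ± 0.119 (exact permutation p = 0.257) and median antibody counts 1619 ± 261 and 1620 ± 200 (exact permutation p = 1). Summed proliferation genes were at 53.5 to 168 CPM in Jak2WT mice and at 26.1 to 155 CPM in mutants other than mice 9 (1428 CPM) and 10 (2782 CPM). Their part in the genotype values was not tested.

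Severity among mutants gave no call either. In the fit of 4 Jak2WT, 2 dilation (6 and 10) and 2 aneurysm mice, without mouse 8 and its 4 neutrophils, 0 of 997 genes were called between aneurysm and dilation by edgeR (0%), 38 had an unadjusted p under 0.05 and DESeq2 called 0. The lowest p values belonged to Supt4a (2.14), Plac8 (5.52), Stap1 (3.57), the lipid droplet gene Hilpda (3.91) and Bcl2a1b (2.77), all higher in aneurysm, and to Gpcpd1 (-1.79), Gm39321 (-1.80), 1810058I24Rik (-1.22), Ankrd33b (-1.46) and Cited2 (-1.25). Bcl2a1b was at 686 and 1230 CPM in mice 7 and 9 and at 157, 311 and 124 CPM in mice 6, 8 and 10, and 363 of the 391 UMIs of mouse 9 lay in its SiglecF-high cells.

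Dilation against Jak2WT gave 0 of 997 genes by edgeR (0%), 97 with an unadjusted p under 0.05 and 0 by DESeq2. Chil3 (4.78), C3 (2.12), Nap1l1 (3.72), Cited2 (1.79) and Fcnb (8.25), the last a lectin of immature granulocytes, had the lowest p toward higher levels. The 2 granule-high cells of mouse 10 held 20 and 14 UMIs of Fcnb, and that of mouse 6 held 0. Dusp5 (-1.78), Klf3 (-2.22), Thbs1 (-1.85), Supt4a (-1.85) and Cd300c2 (-1.87) had them toward lower levels. Both comparisons use the same dilation mice.

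The genotype difference in neutrophils was also tested against that in macrophages of the same mice, with mouse as a block. By edgeR 0 of 680 genes were called (0%), and 101 had an unadjusted p under 0.05. The lowest p belonged to Dusp5, a nuclear phosphatase of ERK (-2.93, edgeR adjusted p = 0.168), followed among lower genes by Cd300c2 (-1.78), Cstb (-1.58), Ifi27l2a (-2.22) and Klf3 (-1.68), and among higher genes by Txnip (2.25), Rps20 (1.91), F630028O10Rik (1.96), Ppia (2.57) and Hnrnpa2b1 (1.40). Negative values mean that the mutant level relative to Jak2WT was lower in neutrophils than in macrophages. No genotype difference was shown to be particular to neutrophils.

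Cells with Ly6G also lay outside the rule. Among the 5978 other kept cells, 49 had a Ly6G count of at least 20 (0.820%), of which 33 came from mouse 9, against 0 of 588 B cells. Of the 49, 24 were SiglecF-high, and all 24 came from mouse 9, with a median of 38.1 S100a8 and S100a9 UMIs per 10000, under the limit of the rule. The C1q limit was exceeded by 7 of these 24 and by 15 of the other 25. The 24 had Il1b at 19379 CPM, Cdkn1a at 1866 and no UMI of Prg2 or Epx. With Ly6G at 20 or more in place of the transcript rule, mouse 9 had 5.59% and the other mutants 0.651 to 2.26%, against 1.49 to 4.26% in Jak2WT mice. Another 21 Ly6G-high, SiglecF-high cells were among the neutrophils of the rule.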

How the data were processed

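Per the file headers, the authors made 1 matrix of UMI counts with Cell Ranger 6.0.2 on mouse mm10, covering 8471 barcodes, 32285 genes, 10 hashtags and 75 antibodies, of which 73 had any count. The deposited counts were whole and unnormalized, and the submitters' processing notes also name Seurat 3.0.0.

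Cells were assigned to mice by hashtag and selected as given above. Doublets of 1 mouse cannot be seen by hashtags, and HTODemux (Seurat 5.3.0, positive quantile 0.99) called 38 of the 120 neutrophils doublets (31.7%, against 17.7% of the other kept cells) and 82 singlets. Their lowest ratio of the leading to the next hashtag was 3.51 and the median 81.3. Counts were summed per mouse with at least 5 neutrophils, which left out mice 4 and 8, and tested with edgeR 4.0.16 (quasi-likelihood, TMM, filterByExpr) or DESeq2 1.42.0 in R 4.3.3, with Benjamini-Hochberg adjustment at 0.05. Shares, depth and antibodies against other cells were tested by exact permutation over mice (numpy 2.4.6), and exact intervals were made with scipy 1.17.1. The edgeR fit and the sign-flip test of antibodies were tried on simulated data. The other classes were set by C1q, Cd79a, Cd3e and Lyz2 with monocyte genes. In each fit without calls, the 5 genes of lowest p in each direction were named, with members of 26 gene lists, the 20 most abundant genes and the largest folds over other cells.

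The members and lists were chosen with earlier results of these data known. A few genes and antibodies are not reported here. Alternatives varied the hashtag, mitochondrial, UMI and S100 limits, markers, cell minimum, filter, normalization and tool and left out each mouse. Settings without SiglecF-high, granule-high or Elane-positive cells, those with all cells of the mice left, and the Ly6G gate were added after seeing the data.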

Additional observations from a re-analysis of the deposited data

Results flagged for a closer look

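By Dixon's ratio of the gap to the range, at its 95% critical value, single mice stood far from the others of their genotype in 5 of 26 groups of values examined. By that level chance flags about 1 in 20 groups. The share of neutrophils was 3.934% in Jak2WT mouse 3. The median number of genes per neutrophil was 1314 in Jak2WT mouse 1. Mouse 9, with an aneurysm, stood apart 3 times, with a median mitochondrial share of 0.7831%, a mean SiglecF count of 209.5 and azurophil granule genes summing to 4772 CPM. The SiglecF value rests on 24 of its 37 neutrophils and the azurophil value on 2 cells.

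Outside the rule, 49 kept cells had a Ly6G count of 20 or more, 0.820% of the 5978 other kept cells. Among B cells 0 of 588 did, which allows a share of up to 0.510% if 3 cells are the limit of a count of 0. This limit differs from the exact interval used for detection shares above. Of these 49, 33 came from mouse 9. Among barcodes without 1 clear hashtag, 1 met every other criterion.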

How the results depend on the processing

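Of the alternatives tried for values that answer a comparison, 308 gave the same result. For a difference this means the same direction and side of the threshold, and for a number of calls a number equal or near to the main one. Among the rest, 33 numbers of calls moved, and 12 differences reversed, 8 were weaker and 2 stronger, as follows. For shares and depth the threshold here is an unadjusted exact p of 0.05, and the difference in median UMIs was not past it after adjustment over 4 measures. The aneurysm-against-others difference in share, 0.633 percentage points, became -0.384 without SiglecF-high cells and -0.466 without these and granule-high cells, and ran from -0.341 (without mouse 9) to 1.61 with single mice left out. Dilation against Jak2WT reached -1.22 (exact permutation p = 0.0357) among HTODemux singlets. The difference in median UMIs was 1314 with at least 10 cells per mouse, 287 under the Ly6G gate, 480 without both cell sets and 1052.5 with all cells of the 6 mice left by that setting, none of them past the threshold. With single mice left out it ran from 801 to 1358, past the threshold without any 1 mutant (exact permutation p = 0.0286) and not without any 1 Jak2WT mouse (exact permutation p = 0.0857). The difference in median genes was 246.5 with at least 1 cell, past it. The difference in median antibody counts, -0.875, turned to 53.5 with at least 10 cells, 103.6 under the Ly6G gate, 16.8 without SiglecF-high cells, 120.7 without both sets, 43.8 with all cells of those 6 mice and -90.4 to 117.2 with single mice left out. Antibodies against other cells, macrophages and Lyz2+ C1q-low cells gave 0 calls with at least 10 cells, where 4 mice cannot pass the threshold. Without both cell sets 6 mice gave 0 calls against other and Lyz2+ C1q-low cells. Against Lyz2+ C1q-low cells, 11 were lower under the Ly6G gate, and 0 to 8 were higher and 0 to 19 lower with single mice left out.

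Genotype calls of transcripts were 34 by DESeq2, 1 (Prok2) with at least 10 cells and 84 without a filter on low counts, and without that filter aneurysm against dilation gave 7, dilation against Jak2WT 29 and the interaction 30. Leaving out single mice gave 0 to 2 calls for aneurysm against dilation (2 without mouse 7), 0 to 1 for dilation against Jak2WT (without mouse 6) and 0 to 1 for the interaction (Dusp5, without mouse 2). Antibody calls by genotype were 1 by DESeq2 (Ly6G), 1 with at least 10 cells (SiglecF) and 1 with all cells of the 5 mice that keep 5 HTODemux singlets (SiglecF). Ly6C by genotype, at a log2 fold change of -0.82 (SE 0.34, edgeR adjusted p = 0.427), turned to 0.0526 among HTODemux singlets. The causes were not tested. Genotypes share no mice, so pairing exists only between cell classes of a mouse, and without this replicate block the interaction also gave 0 calls, with 124 genes against 101 at an unadjusted p under 0.05. A fit of 3 groups with at least 10 cells could not be made. Depth limited the share of a single mouse, with an exact interval of 0.253 to 2.35% in mouse 8.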

Other observations

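Mouse 9 held 69 kept cells with a SiglecF count of 50 or more, whatever their transcripts or Ly6G, and the other mice 0 to 3 each. Over all mice 28 of these were neutrophils by the rule. Of the other 52, 24 had a Ly6G count of at least 20 and 27 were over the C1q limit. They had a median Ly6G count of 17 and Csf3r at 209 CPM against 707 CPM in the SiglecF-high neutrophils.

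X-linked Xist was at 776 to 926 CPM in the kept cells of mice 1, 2, 6 and 7 and at most 37.7 CPM in the other 6, with Y-linked genes reversed, so each genotype had 2 mice of that kind. The 2 aneurysm mice differed in this, as mouse 7 had Xist at 776 CPM and mouse 9 at 14.7 CPM.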
